A study of Mus musculus with 4 samples.

Results

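The Myc domain is a stretch of mouse chromosome 15 (mm10, 61900000 to 63800000) that holds the Myc gene, the neighbouring non-coding gene Pvt1 and a long gene desert downstream of both. Its members are the ATAC-seq peaks whose midpoint lies in that stretch, 103 of the 182042 peaks in 4 deposited lists. Where peaks of any lists shared at least 1 bp they were merged into a region, which gave 60 regions in the domain of 107621 in the genome. ATAC-seq marks open chromatin by letting a transposase insert sequencing adapters into accessible DNA. The 4 samples were thymocytes, sorted and processed at once, from C57BL/6J mice that were wild type and 5 to 7 weeks old. Of these, 2 were CD4+CD8+ double positive (DP) cells. The other 2 were CD4-CD8- double negative (DN) cells gated as CD25+ and CD44-/+, an earlier stage, so that the DN gate spans more than one step of maturation. No sample carried a transgene or a deletion. Whether animals were pooled, and whether samples of one kind are from separate animals, is not in the labels, and p-values then measure only the spread between these samples, which may be technical.

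Myc encodes a transcription factor that drives cell growth and division. Its level in a given tissue is set by enhancers that can lie far downstream, beyond Pvt1, in a desert with no other coding gene. In immature and leukaemic T cells Notch signalling acts on one such far enhancer, and blood stem and progenitor cells use a cluster farther out. Pvt1 is a long non-coding RNA gene whose body and promoter also contain regulatory elements of Myc. RNA was not used here, so the values below describe open chromatin and not Myc expression.

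The annotated landscape gives the domain its order. Myc (gene ID 17869) spans 61985341 to 61990361 on chromosome 15, and all distances here are counted in kb from its start, with positive values toward Pvt1. Pvt1 (gene ID 19296) spans 62037986 to 62260215, which is 52.6 to 274.9 kb. Beyond it lie 8 further long non-coding RNA genes, the longest of which are Gm20740 (1429.1 to 1494.3 kb) and Gm30159 (1125.1 to 1160.1 kb). The next coding gene downstream is Gsdmc, a gasdermin gene, whose start lies at 1790.6 kb and whose body crosses the edge of the domain. Outside the domain the nearest coding genes are A1bg at -1064.1 kb and Gsdmc2 at 1839.0 kb. A window from 1200 to 1400 kb was set for the Notch-dependent enhancer and one from 1600 to 1800 kb for the blood enhancers, from general knowledge of their distance, since the files give no enhancer positions. The annotation used here gives gene spans only, so exons and introns were not separated.

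RefSeq promoter entries (GRCm38.p6, the build of mm10) were matched for 7 of the long non-coding RNA genes of the domain. Only that of Gm20740 was touched by a peak, and by a peak of a single list, DP 2. It is shown because it is the only promoter sequence at hand in the domain that a peak overlaps. It lies at chr15:63479559-63479858 on the minus strand, from 250 bases before the gene start to 50 after it, with the match to the RUNX-type motif TGTGGT in capitals.
Gm20740 promoter: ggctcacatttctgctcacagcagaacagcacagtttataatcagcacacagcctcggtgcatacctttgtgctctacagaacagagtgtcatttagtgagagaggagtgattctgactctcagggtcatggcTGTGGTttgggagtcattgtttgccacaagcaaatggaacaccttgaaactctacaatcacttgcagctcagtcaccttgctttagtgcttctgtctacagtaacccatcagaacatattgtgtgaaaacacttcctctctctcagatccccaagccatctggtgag
The motif was searched on both strands and matched 1 time, on the strand shown, at base 134 from the 5′ end. It occurs in 16.8% of the 32851 promoter entries. The E-box form CANNTG, searched on both strands, matched 3 times, at bases 164 to 290, and occurs in 72.3% of entries. The ETS core GGAA, searched on both strands, matched 2 times and occurs in 96.0% of entries. Its match at base 169 shared 1 base with an E-box form, and no match overlapped TGTGGT. The letters of the core promoter box, TATAAA, matched 1 time, on the opposite strand, and occur in 13.6% of entries. No match on either strand was found for the E-box CACGTG (in 7.15% of entries), the E2F-type letters TTGGCGC (in 2.45%), the TCF-type letters CTTTGA (in 16.0%) or the GC box GGGCGG (in 35.7%). The letters TGGGAA, a core of the site read by the Notch cofactor RBPJ, had no match on either strand in this window and occur in 25.6% of entries. The window had 46.3% G and C bases, against a median of 52.7% over all entries.

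The lists differed in length and in what they covered across the genome. They held 39718 and 70385 peaks for DP 1 and DP 2, and 38808 and 33131 peaks for DN 1 and DN 2. The lists give no counts of reads. Depth is therefore unknown, and closed chromatin and too few reads at a site cannot be told apart. Of the 21883 protein-coding genes, 46.0 and 48.9% had a peak midpoint within 1000 bp of a gene end in the DP lists, and 36.8 and 25.9% in the DN lists, so DN 2 held the fewest gene ends. Of 8 DP marker genes, 7 had a peak at a gene end in each DP list, against 3 and 2 in the DN lists. Cd4, Cd8a and Cd8b1 had one in both DP lists and in neither DN list. Of the 8 markers of CD25+ DN cells, 3 and 7 had a gene-end peak in DP 1 and DP 2, and 5 and 1 in DN 1 and DN 2, so the groups overlapped. Il2ra, which encodes CD25, had one in DN 1 but not in DN 2, and also in DP 2. Among markers of other cells, gene-end peaks were held at 1 and 2 of 6 B cell genes in the DP lists and 1 and 1 in the DN lists, and at 2 and 1 of 6 myeloid genes against 1 and 1. The counts were 0 and 1 of 5 erythroid genes in the DP lists, 1 and 2 of 5 NK and innate genes and 1 and 1 of 5 stromal genes, and 0 in both DN lists for each of these. Ebf1 had one in all 4 lists, Cebpa in DP 1, DN 1 and DN 2, and Spi1 and Pdgfrb in both DP lists. Cd79a, Epor, Eomes and Tbx21 had one in DP 2 alone and Nfil3 in DP 1 alone. Ms4a1, Csf1r, Lyz2, Gata1, Klf1, Ncr1 and Foxn1 were among those with none in any list. The part of other cells in the results was not tested.

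The Myc domain carried several times more peaks in DP lists than in DN lists. It held 37 peaks in DP 1 and 52 in DP 2, against 9 in DN 1 and 5 in DN 2. Both DP lists were above both DN lists. The group means were 44.5 ± 10.6 peaks in DP and 7.0 ± 2.83 in DN (SD, n = 2 each), a difference of 37.5 peaks and a ratio of 6.36. An exact two-sided permutation test gave p = 0.333, which is the smallest value that 3 splits of 4 samples allow. Of 1421 windows of 1.9 Mb that tile the genome, 37.9% had both DP lists above both DN lists, so the order of the lists is in itself common. The domain was also above for lists of equal weight. Per 10000 peaks of a list it held 9.32 in DP 1 and 7.39 in DP 2, against 2.32 in DN 1 and 1.51 in DN 2, with means of 8.35 ± 1.36 and 1.91 ± 0.573 (SD, n = 2 each; exact permutation p = 0.333), an order seen in 27.7% of the windows, while 37.8% had the opposite order. Peaks covered 17.85 and 24.55 kb in the DP lists and 3.7 and 2.15 kb in the DN lists.

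**Figure D1:**
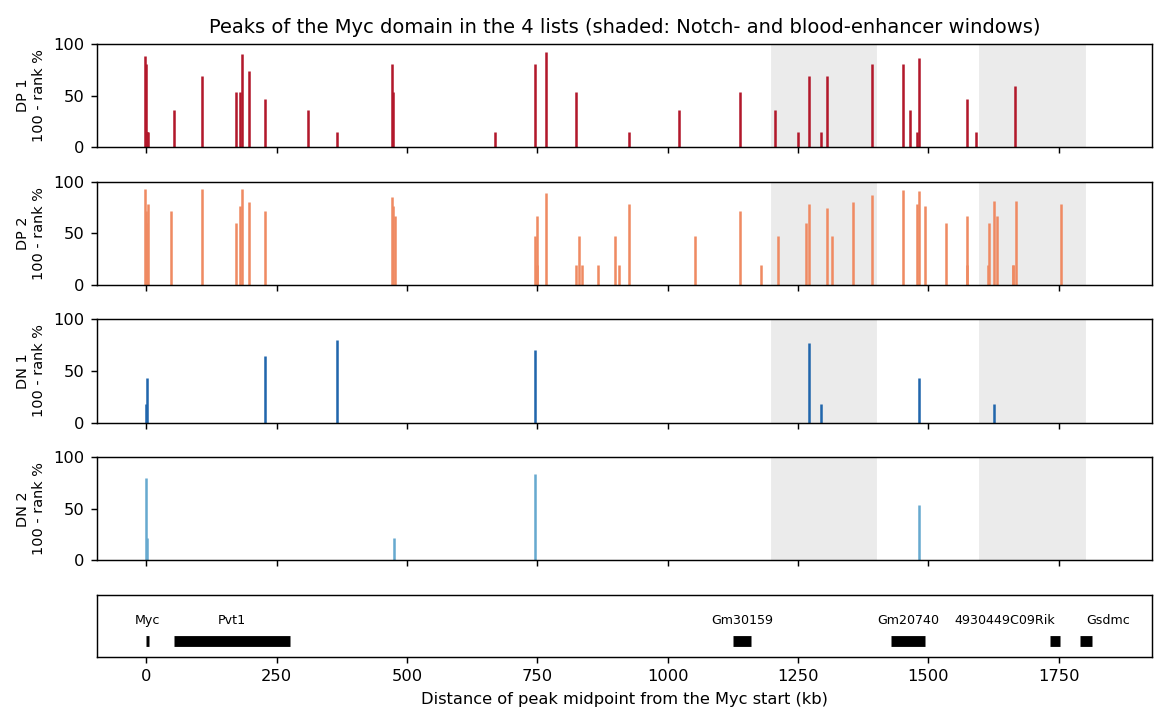
Peaks of the Myc domain, 1 row per list (DP 1, DP 2, DN 1, DN 2), by distance of the midpoint from the Myc start in kb. The height is 100 minus the rank percent of the peak in its own list, so tall lines are strong peaks of that list, and black bars mark gene spans. The DP rows hold 37 and 52 lines from Myc to beyond 1600 kb, and the DN rows hold 9 and 5.

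Set against all windows of the genome, the DP level of the domain was ordinary and its DN level was low. Among windows with few coding genes its DP level was high. The median window held 6.63 peaks per 10000 in DP and 6.84 in DN. Of the windows, 65.2% had a lower DP mean than the domain, and 8.73% had a lower DN mean. The domain touches only 2 coding genes, Myc and Gsdmc. Windows with at most 2 coding genes numbered 213, and they usually ran the other way, with medians of 2.93 peaks per 10000 in DP and 7.10 in DN. Of these 213 windows, 1.88% had both DP lists above both DN lists per 10000 peaks, and 2.82% did so in plain peak numbers. Their number with at least as many DP peaks as the domain was 15, and with at least as many DN peaks it was 188. The tiles were laid from the start of each chromosome and not around genes, and no test was made on them. They include tiles empty in every list, such as most of chromosome Y and the first tile of each numbered chromosome. Empty tiles count as below the domain in DP and in DN, and cannot show either order of the lists. The window shares here and above were not recomputed without them.

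**Figure D2:**
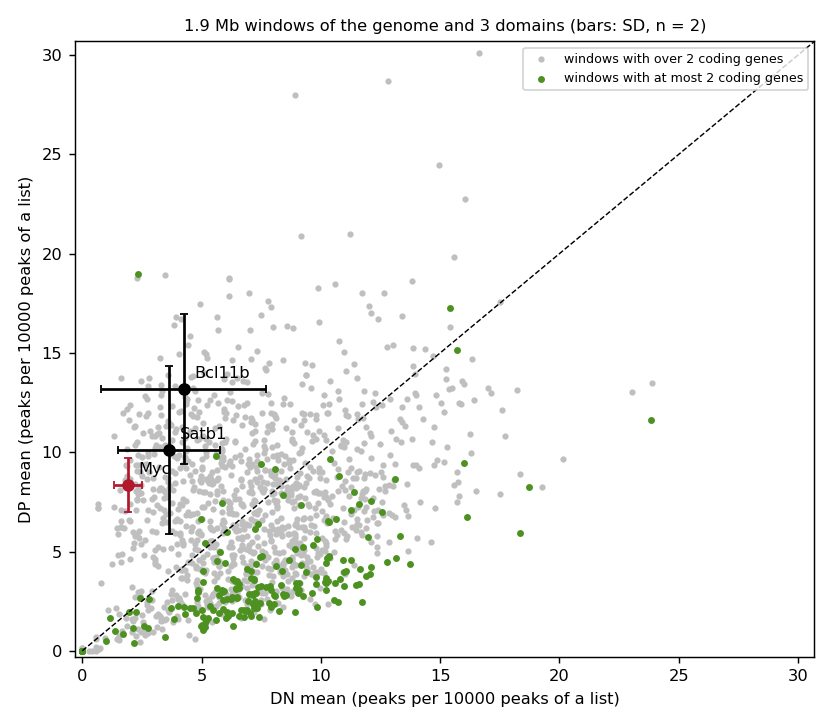
Mean peaks per 10000 peaks of a list in DP (vertical) against DN (horizontal) for 1421 windows of 1.9 Mb, with the Myc, Bcl11b and Satb1 domains as large points (bars: SD, n = 2). Windows with at most 2 coding genes (green) lie mostly below the dashed line of equality, and the Myc domain lies above it at 8.35 in DP and 1.91 in DN.

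Most regions found in both DP lists were in neither DN list. A region is called DP-only when both DP lists and neither DN list hold it, DN-only in the opposite case. The domain had 19 DP-only regions of 60, or 31.7%, against 7.44% of all regions in the genome. Both DP lists held 25 of the 60 regions, whatever the DN lists held, or 41.7%, against 20.6% of all regions. It had 0 DN-only regions, where the share over the genome was 2.51%, and 4 regions held by all 4 lists, or 6.67%, where the genome had 7.39%. A further 2 regions were held by both DP lists and DN 1, or 3.33%, where the genome had 4.88%. Both DP lists and only 1 of the DN lists, whichever it was, held 5.77% of regions in the genome. The rest came from fewer lists, since 23 regions came from DP 2 alone, 8 from DP 1 alone, 1 from DN 2 alone, and 3 from DN 1 with 1 DP list. Without DP 1, when DP 2 stood alone for its group, 42 regions counted as DP-only, and 80.8% of regions did so in the domain and 45.8% in the genome.

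Sites held by a DN list were nearly all held by a DP list too. Of the 10 regions that a DN list held, 9 were also in a DP list and 6 in both, which is 90.0 and 60.0%, against 37.5 and 27.0% of DN regions in the genome. The exception was a region of DN 2 at 475.58 kb (62460751 to 62461100), with a rank percent of 77.91. The rank percent is the position of a peak in its own list sorted by the authors' p-value, with ties at their mean, so that small values are strong peaks. DN 2 held 5 regions, and 4 of them were held by all the other lists. In the other direction 9 of the 59 regions of DP lists were held by a DN list, or 15.3%, against 26.2% in the genome.

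At Myc itself the start was open in all 4 lists and a site upstream in DP lists alone. The stretch from 2 kb before Myc to 2 kb past its end held 6 peaks in each DP list and 2 in each DN list. The region over the start (61984901 to 61985750) was held by all 4 lists, and each pair of lists overlapped there directly. Its best rank percent was 19.58 in DP 1 and 28.71 in DP 2, and 82.28 in DN 1 and 20.11 in DN 2, so in DN 1 it was among the weakest peaks of the list. A region at -1.87 kb (61983151 to 61983800), upstream of the start, was DP-only. It was among the strongest of the domain, with a rank percent of 11.29 in DP 1 and 6.98 in DP 2. Within the gene a region at 1.86 kb (61986701 to 61987700) counted as held by all 4 lists, but it is a chain of 5 weak peaks in which 4 of the 6 pairs of lists overlapped directly. Next to it a region at 2.66 kb (61987751 to 61988250) was DP-only, with a rank percent of 21.89 in DP 2 and 85.44 in DP 1, where it had the largest p-value of that list.

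**Figure D3:**
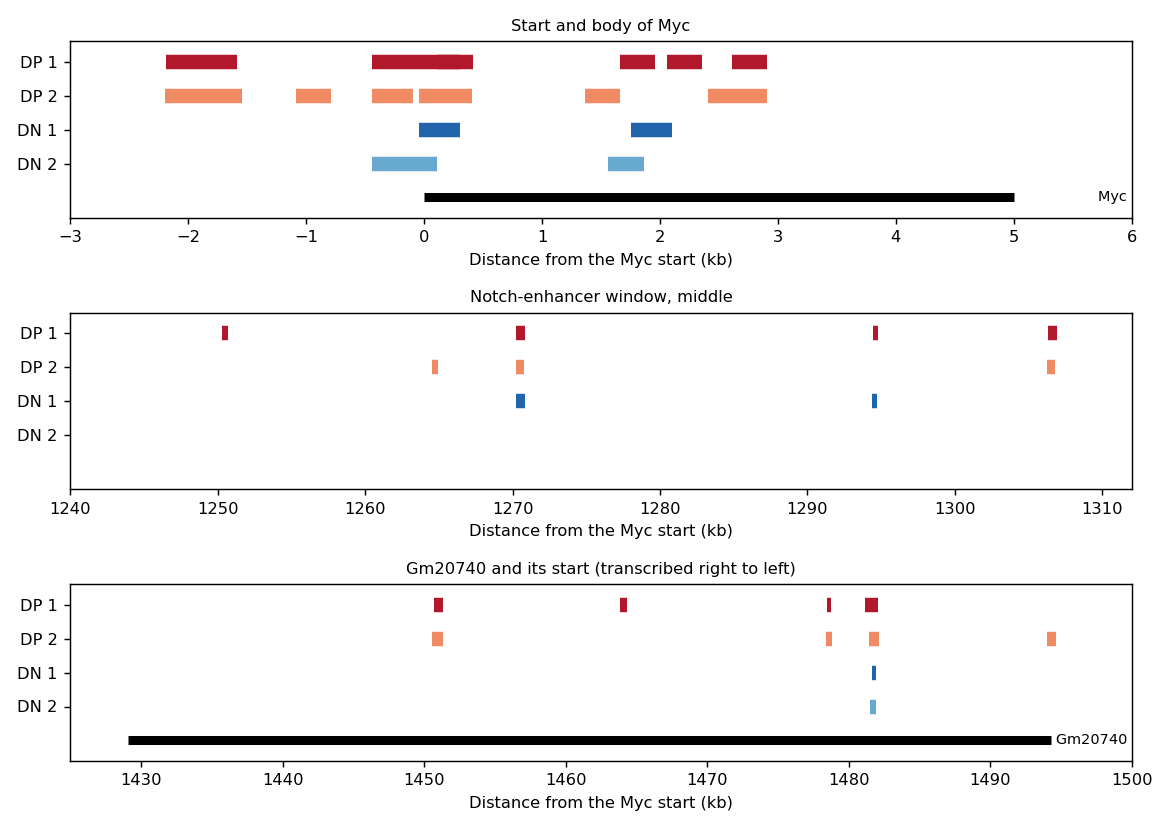
Extent of each peak in the 4 lists around Myc, in the middle of the Notch-enhancer window and over Gm20740, by distance from the Myc start in kb (black bars: gene spans). The Myc start carries a peak in every list, the site near 1270 kb in DP 1, DP 2 and DN 1, and the site near 1482 kb within Gm20740 in every list.

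Pvt1 carried a row of sites that both DP lists held. Its span held 6 peaks in each DP list, 1 in DN 1 and 0 in DN 2, and each of its 6 regions was in both DP lists. Of these, 5 were DP-only, at 107.56, 172.06, 179.61, 184.33 and 196.26 kb. The region at 184.33 kb (62169201 to 62170150) was 950 bp wide and had a rank percent of 9.93 in DP 1 and 6.63 in DP 2, the best of the domain in DP 2. The region at 107.56 kb (62092551 to 62093250) reached 6.98 in DP 2 and 30.86 in DP 1. The sixth, at 227.13 kb (62212201 to 62212750), was also held by DN 1, with a rank percent of 35.38 there. The start of Pvt1, at 52.6 kb, was touched by a peak of DP 1 alone (62037751 to 62038100, rank percent 63.98).

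The near desert, from the end of Pvt1 to 1200 kb, held 11 and 17 peaks in DP 1 and DP 2 and 2 in each DN list. It contained 6 DP-only regions, at 471.93, 472.86, 767.51, 824.13, 925.98 and 1138.01 kb, the last inside the long non-coding RNA gene Gm30159. The strongest was at 767.51 kb (62752501 to 62753200), with a rank percent of 8.06 in DP 1, the best of the domain in that list, and 11.25 in DP 2. A region at 745.38 kb (62730451 to 62731000), close by, was held by all 4 lists. In the DN lists it was one of the strongest sites of the domain, with a rank percent of 29.8 in DN 1 and 16.73 in DN 2, against 19.58 in DP 1 and 53.02 in DP 2. The strongest DN 1 peak of the domain lay at 365.73 kb (62350801 to 62351350), with a rank percent of 19.46, and DP 1 held that region at 85.44 while DP 2 did not. Between 472.86 and 745.38 kb no region was held by both DP lists, which was the longest such gap.

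In the Notch-enhancer window DP 1 held 6 peaks and DP 2 held 7, against 2 in DN 1 and 0 in DN 2. The means were 6.5 ± 0.707 in DP and 1.0 ± 1.41 in DN (SD, n = 2 each). The adjoining stretch from 1400 to 1600 kb had the same means, 6.5 in DP and 1.0 in DN, so they were not particular to this window. How often other stretches of this length show that order was not counted. The region at 1270.53 kb (63255551 to 63256200) was the only one of this window held by both DP lists and a DN list. Its rank percent was 30.86 in DP 1 and 21.89 in DP 2, and 22.52 in DN 1. DN 2 had no peak there, and the nearest regions it held on either side were at 745.38 and 1481.63 kb. Farther downstream in the window, DP-only regions lay at 1306.58 kb (63291601 to 63292250) and 1392.11 kb (63377101 to 63377800), and the one at 1392.11 kb had rank percents of 19.58 in DP 1 and 13.17 in DP 2. A weak region at 1294.58 kb was shared by DP 1 and DN 1.

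The middle desert, from 1400 to 1600 kb, held 6 and 7 peaks in DP 1 and DP 2 and 1 in each DN list. Gm20740 lies here, and 5 regions touched its span. A region at 1481.63 kb (63466501 to 63467450) was held by all 4 lists, was 950 bp wide and had the best rank of the gene in DP 1, with a rank percent of 13.3 in DP 1 and 8.74 in DP 2, and 56.31 in DN 1 and 46.33 in DN 2. DP-only regions lay beside it in the gene, at 1450.93 kb (63435901 to 63436650), with rank percents of 19.58 in DP 1 and 8.35 in DP 2, the best of the gene in DP 2, and at 1478.63 kb. The gene's start, whose sequence is given above, was covered by the DP 2 peak at 1494.33 kb (63479351 to 63480000, rank percent 23.95). Another DP-only region of the middle desert, outside Gm20740, was at 1573.98 kb.

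The blood-enhancer window separated the DP lists from each other. It held 1 peak in DP 1 and 8 in DP 2, against 1 in DN 1 and 0 in DN 2. DP 1 and DN 1 held the same number, so the groups overlapped, and the difference of means rested on DP 2. Without DP 2 the DP minus DN difference was 0.5 peaks, against 4 with all lists. The region that both DP lists held was at 1667.33 kb (63652351 to 63653000), with a rank percent of 40.97 in DP 1 and 18.29 in DP 2, and it was DP-only. A region at 1625.86 kb (63610851 to 63611550) was held by DP 2 at 18.29 and by DN 1 at 82.28. The outermost peak of the domain, at 1755.38 kb, was of DP 2 alone and overlapped the start of the span of Gm41336.

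**Figure D4:**
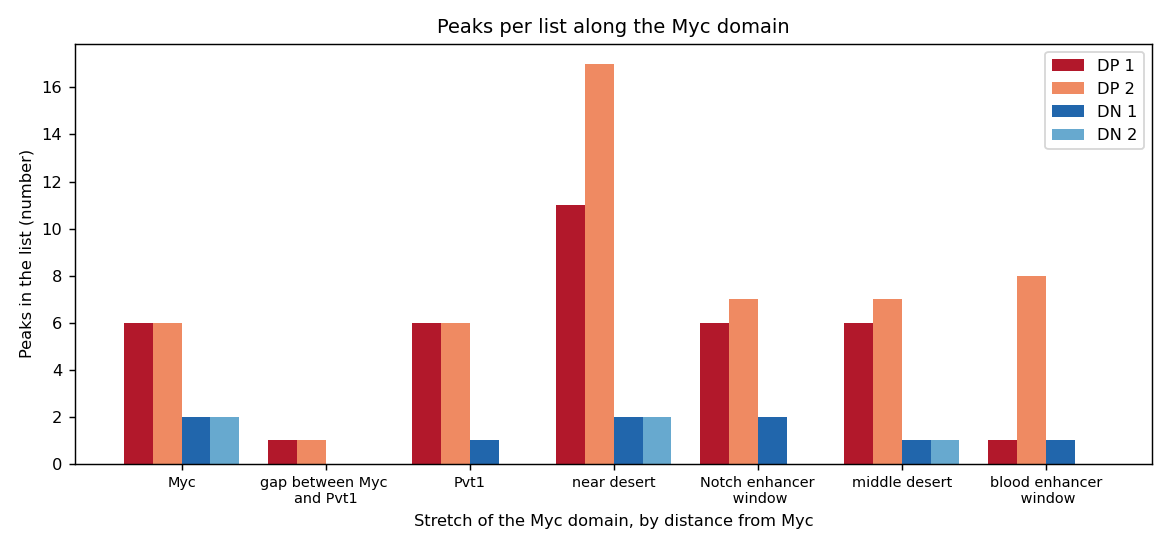
Number of peaks of each list (DP 1, DP 2, DN 1, DN 2) in 7 stretches of the Myc domain, in order from Myc to the far desert. The DP bars are higher than the DN bars in each stretch except the blood-enhancer window, where DP 1 and DN 1 hold 1 peak each and DP 2 holds 8.

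Neither end of the domain was marked in any list. No list held a peak between the domain's lower edge and -2 kb, or past 1800 kb. The first peaks inside were 83.4 kb from the lower edge in DP 1 and 83.5 kb in DP 2. The nearest peaks outside that edge were 208.2 kb away in DP 1, 3.4 kb in DP 2, 470.9 kb in DN 1 and 1075.0 kb in DN 2. Past the upper edge the nearest were 95.8 kb away in both DP lists, 198.2 kb in DN 1 and 222.4 kb in DN 2.

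Most regions of the domain, DP-only or not, lay far from any coding gene. Of the 19 DP-only regions, 17 were more than 100 kb from the nearest end of a coding gene, or 89.5%, against 52 of all 60 regions, or 86.7%. The desert beyond Pvt1 held 12 of the 19, or 63.2%, against 47 of the 60, or 78.3%. Of the 19, 7 lay beyond 1000 kb, beside 9 of the 25 regions held by both DP lists and 4 of the 10 held by a DN list. Of the 19, 10 touched no annotated gene, 5 touched Pvt1, 3 touched other long non-coding RNA genes and 1 touched Myc. Among all 60 regions the numbers were 43, 7, 7 and 3, so the DP-only regions touched no gene less often. A count of regions by nearest coding gene within 100 kb therefore gives Myc 2 DP-only regions of these 19.

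Regions held by both DP lists were wider and stronger than those of a single DP list. A region counts as held by both through merging of overlapping peaks. Close positions are therefore largely set by that rule, and wide peaks meet it more easily. For the 25 regions held by both DP lists the midpoints of the best peaks of DP 1 and DP 2 differed by a median of 50 bp, and by at most 100 bp in 19 of them. The median rank percent was 30.9 in DP 1 and 21.9 in DP 2, against 64.0 for the 8 regions of DP 1 alone and 53.0 for the 23 of DP 2 alone. Their median peak width was 550 bp in each DP list, against 350 bp for regions of 1 DP list alone. Of the regions of DP 1 in the domain, 71.4% were also in DP 2, against 63.7% over the genome. Of those of DP 2, 51.0% were in DP 1, against 35.6%. In DP 2, 38.5% of the domain's peaks were in the best 25% of the list by rank, against 24.7% of the whole list, where ties shift the share. In DP 1 the domain had 24.3%, against 24.7%. The DN lists had 22.2% of 9 peaks in DN 1, against 24.3%, and 40.0% of 5 peaks in DN 2, against 27.4%.

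**Figure D5:**
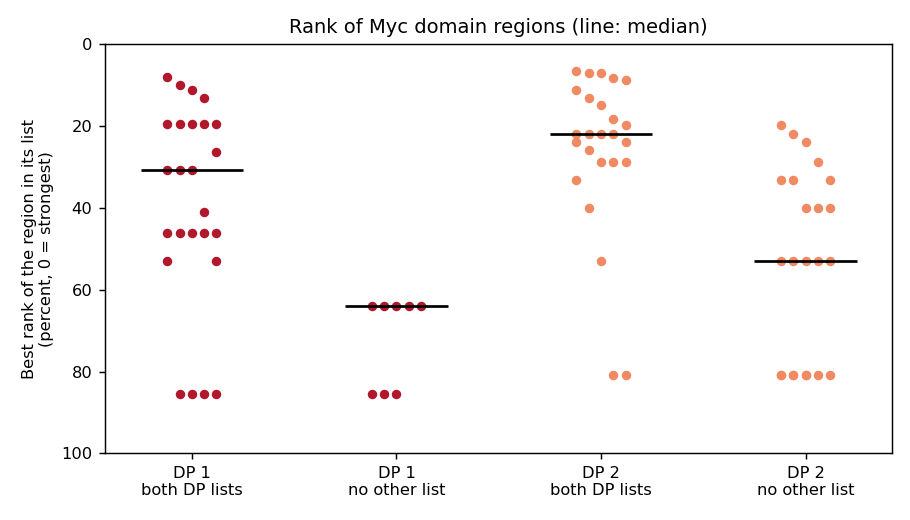
Best rank percent of each domain region in DP 1 and DP 2 (vertical axis inverted, so strong peaks are at the top), for the 25 regions held by both DP lists and for the 8 and 23 regions held by no other list (line: median). The medians are 30.9 and 21.9 for regions in both lists, and 64.0 and 53.0 for the others.

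The domains of Bcl11b and Satb1, T cell regulators that also lie beside gene deserts, were compared over windows of the same length centred on each gene. The Satb1 window held 52 and 50 peaks in DP 1 and DP 2, against 20 and 7 in DN 1 and DN 2. The Bcl11b window held 63 and 74 against 26 and 6. The ratios of DP to DN means were 3.78 for Satb1 and 4.28 for Bcl11b, and 6.36 for the Myc domain. Per 10000 peaks of a list they were 2.78, 3.1 and 4.36 in that order. The windows touched 3, 15 and 2 coding genes, and no test was made of the difference between domains. DN 1 held more than DN 2 in all 3. The Satb1 window had 17 DP-only regions of 68 and 0 DN-only regions, and the Bcl11b window had 19 of 88 and 0. The Myc domain had 19 DP-only regions of 60, or 31.7%. The DP-only shares of the Satb1 and Bcl11b windows were below that of the Myc domain and above the 7.44% of the genome.

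Genes of the MYC network were then read by the same rule, with each region given to the coding gene of nearest end within 100 kb. A gene leans DP when its DP-only regions outnumber its DN-only regions. A region is reproducible when both DP lists or both DN lists hold it. Among 12143 coding genes with a reproducible region, 38.8% leaned DP and 9.93% leaned DN. Of 13 genes of the MYC network, all of which had such a region, 5 leaned DP and 0 leaned DN. Max, the obligate partner of MYC, led with 5 DP-only regions, and held 8 peaks in each DP list against 2 and 1 in the DN lists. Mxd3 and Mga, which code for other partners of MAX, had 2 DP-only regions each, with 2 and 2 peaks at Mxd3 and 2 and 3 at Mga in DP 1 and DP 2, and 0 at both genes in DN 1 and DN 2. Myc had 2, with 7 and 8 peaks in the DP lists against 2 and 2. Mycn, a paralogue of Myc, had 1 DP-only and 1 DN-only region, with 4 and 4 peaks against 4 and 3. The DP-leaning genes of the network were 9 of 13 without DP 1 (69.2%), where 67.2% of all coding genes with a reproducible region leaned DP. They were 8 of 13 without DP 2 (61.5%, all genes 53.6%), 11 of 13 without DN 1 (84.6%, all genes 50.1%) and 8 of 12 in the best 50% of each list (66.7%, all genes 38.9%).

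Of 20 genes known as targets of MYC, 15 had a reproducible region, 5 leaned DP and 0 leaned DN. Slc7a5, an amino acid transporter, had 2 DP-only regions, with 2 and 3 peaks in DP 1 and DP 2 and 0 in DN 1 and DN 2. Ccnd2, a cyclin, had 2, with 7 and 10 against 3 and 3, and Ldha, lactate dehydrogenase, had 2, with 5 and 6 against 3 and 1. Tert had 1. Gene ends of the targets were held in 18 and 17 of 20 genes in the DP lists and in 18 and 12 in the DN lists. Ncl, Npm1, Odc1, Cad, Fbl, Cdk4, Tert, Hspd1, Srm, Pcna and Mcm4 had an end peak in all 4 lists. Without DN 1, 9 of 15 targets leaned DP, or 60.0%, where 50.1% of all genes did.

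Of 15 genes for factors that act at far Myc enhancers, 13 had a reproducible region, 9 leaned DP and 1 leaned DN. Runx1 had 5 DP-only regions, with 10 and 20 peaks in the DP lists against 4 and 0 in the DN lists. Bcl11b also had 5, with 15 and 18 against 6 and 2. Ikzf1, the Ikaros gene, had 4, with 11 and 11 against 7 and 3, and Tcf7 had 3, with 11 and 11 against 3 and 0. Rbpj, the Notch cofactor, leaned DN with 1 DP-only region and 2 DN-only ones, and held 5 and 4 peaks in DP 1 and DP 2, against 9 and 4 in DN 1 and DN 2. That lean was absent without DN 1, in the best 50% of each list and with peaks merged within 250 bp. The DP-leaning genes were thus 5 of 13, 5 of 15 and 9 of 13 genes with a reproducible region, beside the 38.8% of all such genes. By the same rule, markers of other cells also leaned DP, except the erythroid list. The lean was DP for 8 of 8 DP markers and 6 of 7 markers of CD25+ DN cells with a reproducible region. It was DP for 2 of 2 B cell, 2 of 3 myeloid, 2 of 3 NK and innate, 3 of 3 stromal and 0 of 1 erythroid genes with such a region.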

How the data were processed

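ATAC-seq peaks of 2 DP and 2 DN thymocyte samples were used. The submitters' processing notes list Bowtie2, Picard and the build mm10. On how each was used, and on duplicates and insertion offsets, the sources used here give no account. In every deposited list there is a p-value per peak, which is the authors' own value and was used only to rank peaks within a list. PeakDEck is known only from the lists' names. Peaks were called per sample, and no 2 lists shared more than 6.26% of the shorter list's peaks at identical coordinates. Depth is unknown, so no counting interval was computed. Coordinates are counted from 1.

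Peaks on chromosomes 1 to 19, X and Y were merged when sharing at least 1 bp. Gene spans came from RefSeq (GRCm38). The members, gene lists and windows were chosen with earlier results of these data known. Named are the genes touching the domain, their flanks, every region in both lists of a group or in all 4, and up to 4 leaning genes per list. Peak numbers were compared by an exact permutation test over samples. Merging was checked on simulated lists with sites planted in stretches free of peaks, which cannot test chains of neighbouring peaks. Scripts ran in Python 3.11.15 with pandas 2.3.3, numpy 2.4.6, matplotlib 3.10.9 and scipy 1.17.1. The planned motif search in the Myc promoter was replaced by the Gm20740 promoter, chosen after the data were seen.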

Additional observations from a re-analysis of the deposited data

How the results depend on the processing

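The DP minus DN difference kept its direction under every alternative run: 23 peaks and 7.68 per 10000 peaks in the best 50% of each list, 28.5 and 8.6 in lists limited to the shortest, 37.5 and 6.44 with any overlap with the domain, and 30 to 45 and 5.47 to 7.4 with a list left out. DP-only regions numbered 14 to 20 with all 4 lists and 19 to 42 with a list left out, the 42 without DP 1. In the best 50% of each list they were 38.9% of regions in the domain and 12.6% in the genome. Without DP 1 these shares were 80.8 and 45.8%, and without DP 2 73.0 and 26.9%. Without DN 1 they were 34.4 and 14.2%, and without DN 2 31.7 and 9.73%. DN-only regions numbered 0 in every run except without DN 1, when there was 1 (range 0 to 1). Over the genome, 19.6% of regions were DN-only without DN 1 and 18.8% without DN 2, against 2.51% in the main run. Regions of all 4 lists fell to 0 in the best 50% of each list, 2 with lists of the shortest length and 1 when a list had to cover 50% of a region, against 4, and were 4 to 5 with a list left out. Of the 19 DP-only regions, 14 kept that class in the best 50% of each list and 18 in lists of the shortest length. Genes leaning DP numbered 8 in the MYC network in the best 50%, and with a list left out 5 to 11 in the network, 5 to 9 among targets and 9 to 13 among enhancer factors. The share of all coding genes with a reproducible region that leaned DP moved too. It was 38.9% in the best 50% and 31.8 to 67.2% with a list left out, against 38.8% in the main run. Genes leaning DN numbered 1 among targets and 0 among factors in the best 50%, and 0 among factors with merging within 250 bp. With a list left out they were 0 to 2, 0 to 3 and 0 to 4, the largest values without DN 2. In that run 28.8% of all coding genes with a reproducible region leaned DN, against 9.93% in the main run. The cause of these shifts was not tested. None of the 6 stretches changed direction. Of 48 genes, 28 had a difference of 0 between the classes, of which 5 took both signs across alternatives. Of the other 20, none took the opposite sign and 3 came to 0 in some setting.

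The labels give both groups the replicate numbers 1 and 2 but do not tie them. With the replicate block the difference was 37.5 peaks and 6.44 per 10000, from 28 and 47 peaks within number 1 and number 2. Each number holds 1 list of each group, so the block values equal the main differences by construction. They are therefore no check of the main result. Per 10000 peaks the differences within number 1 and number 2 were 7.0 and 5.88, with DP higher in both. Over the 1421 windows the differences of replicate 1 minus 2 in DP and in DN correlated at 0.551, as a hint from the data only.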
